A study of Mus musculus with 6 samples.

Results

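The ATP-binding cassette (ABC) transporters are membrane pumps, and 34 genes of the family were read on 6 single-colour (Cy3) Agilent mouse arrays. A gene was a member if a probe carried a RefSeq accession of that gene, and it was represented by its probe of highest mean signal. All 34 listed genes were found, through 59 probes, among 33269 genes or transcripts on the array. Of these, 24 members and 19647 features in all were well above background on every array of at least 1 group and entered the comparison. The 3 wild-type samples and the 3 samples labelled as a knockout of Rap1 were mouse embryonic fibroblasts, cultured with puromycin, and both groups had received SV40 large T antigen and Cre recombinase by infection. Rap1, encoded by Terf2ip, sits on telomeres as a partner of Terf2. Its floxed allele was made in 129Sv/Pas embryonic stem cells brought into C57BL/6J mice, and Cre removes exon 3. The labels give neither the age of the embryos nor whether replicates were separate embryos or cultures, and they do not say whether wild-type cells carried the floxed allele. The p-values therefore measure only the spread between these samples, which may be technical.

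ABC transporters bind and hydrolyse ATP in cytosolic domains and use it to move lipids, drugs, conjugates, peptides or metal cofactors across a membrane. The A and G subfamilies move mostly lipids and sterols, the B subfamily holds drug pumps together with mitochondrial and lysosomal carriers, the C subfamily exports conjugated anions or regulates potassium channels, and the D subfamily serves peroxisomes and lysosomes. In fibroblasts and macrophages, Abca1 and Abcg1 are known for passing cholesterol to lipoproteins, and both are textbook targets of the liver X receptors.

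Shelterin, the complex that Rap1 belongs to, binds the telomere repeat TTAGGG, so the members' promoters were searched for these letters on both strands in the 250 bases before each RefSeq start (build GRCm38.p6). The table held 29 promoters, from 24 of the 34 members, and 7 (24.1%) held the hexamer, against 9.32% of all 32851 promoters of that length. The windows of the 3 such members that were detected on the arrays are given here, gene strand, 5′ to 3′, with the hexamer in capitals. The matches in Abcb1b and the first in Abca7 run into a GGGCGG box, a motif held by 55.2% of the members' promoters and 32.7% of all.

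Abcb1b, chr5:8798084-8798113, plus strand: ggctgccgggccTTAGGGcggccgctggca
Abcb4, chr5:8893571-8893600, plus strand: tggcagtcacttTTAGGGgcccgtagcctg
Abca7, chr10:79996431-79996460, plus strand: ccaatagtagcgTTAGGGggcggggctggg
Abca7, chr10:79996455-79996484, plus strand: gctgggtgctccTTAGGGcaccgggttgcg

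The hexamers lie 51 bases before the start in Abcb1b, 138 in Abcb4, and 51 and 27 in Abca7. The other members with the hexamer were Abca4, Abca9, Abcc9 and Abcg3. Of the 6 members whose groups did not overlap, 5 had a promoter in the table, Abca2, Abca3, Abcb6, Abcb9 and Abcc4, and 0 of the 5 held it in this window. A match is a description of letters and was not tested as a binding site.

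Between 61.6% and 67% of 41174 probes were well above background on each array, and the number of arrays limits the precision. Terf2ip, the check of the labels, read −1.75, −1.65 and −1.81 on wild-type arrays 1, 2 and 3 (log2 processed signal less the 75th percentile of that array, the scale of all levels here) and −7.91, −9.08 and −8.11 on the knockout arrays. Of the knockout arrays, 0 of 3 measured it well above background, and it fell at least 37.8-fold (limma adjusted p = 0.00792), where the bound sets the wild-type mean against, per knockout array, its own signal or, if higher, the dimmest signal that was well above background. Wild-type arrays 2 and 3 were much closer to each other (SD of the log2 difference 0.19) than any other pair (0.69 to 1.06). The main values count them as separate, as labelled, and averaging the 2 left Terf2ip at a limma adjusted p of 0.0651. The first array of each group shared slide 1, and the other 4 shared slide 2.

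None of the 24 detected members passed the threshold of a limma adjusted p under 0.05 over all features, where 2 of 19647 features (0.0102%) passed, Terf2ip and a transcript without a gene symbol. Both calls were lost with wild-type arrays 2 and 3 averaged and with the slide or the replicate number as a block, where 0 features passed in limma (690, 3482 and 2351 at an unadjusted p under 0.05). At an unadjusted limma p under 0.05, 5 members lay higher in knockout cells and 0 lower, against 5.61% and 4.66% of all features. With wild-type arrays 2 and 3 averaged, 3 members (Abcb9, Abcc4 and Abcg1) lay higher at that unadjusted p, against 1.44% of all features. With the slide as a block, 6 members lay higher and 1 lower (Abcb1a) at that unadjusted p, against 9.93% and 7.8% of all features. Every knockout array lay above every wild-type array for 6 of the 24: Abcg1, Abcb9, Abcc4, Abcb6, Abca2 and Abca3. Over all features this share was 11.3%. The reverse held for 0 members, against 5.88%. In all, 15 members lay above 0 and 9 below (62.5% above, against 55.4% of all features), and their median log2 difference was 0.082, against 0.068 for all features. At least 2-fold higher were 5 members (3.88% of all features) and at least 2-fold lower was 1 (6.26%). Abcb1a, Abcc8 and Abcc10 entered only through the group where they read higher, so the counts over detected members take in a choice made by the filter.

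**Figure D1:**
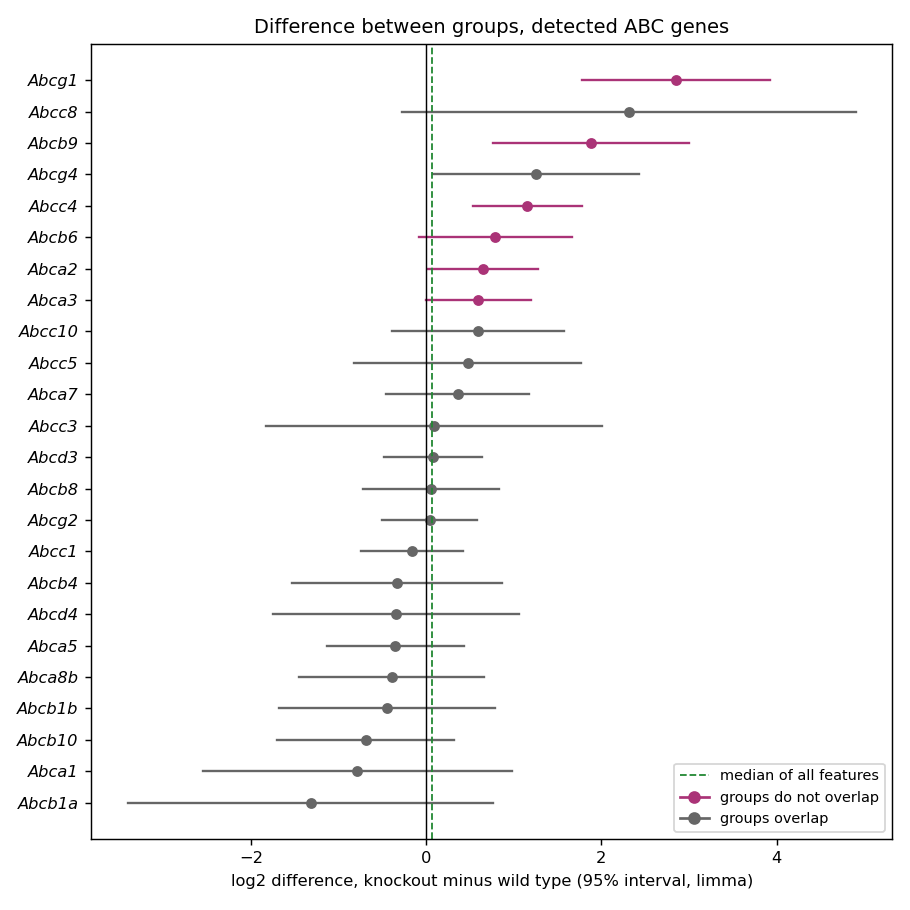
Log2 difference between knockout and wild type for the 24 detected ABC genes (points) with the 95% interval of the limma fit (bars), 3 arrays per group, with the median of all features as a dashed line. The 6 genes whose groups do not overlap all lie above 0, from 0.60 for Abca3 to 2.85 for Abcg1. Among these 6, the intervals of Abca3 (−0.0042 to 1.20) and Abcb6 (−0.086 to 1.66) include 0. The intervals of most other members span 0 widely.

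Abcg1, which passes cellular cholesterol to high-density lipoprotein, had the largest difference of the 24 detected members. It read −4.87, −4.17 and −4.09 in wild type and −2.39, −0.81 and −1.37 in knockout cells. Even the lowest knockout array lay well above the highest wild-type array. The log2 difference was 2.85 (SE 0.45, 95% interval 1.78 to 3.93), a 7.23-fold higher mean, with a limma adjusted p of 0.199. The log2 difference was smaller, 2.04, after normexp and quantile normalisation and 2.05 in the deposited value table. Averaging wild-type arrays 2 and 3 gave 2.98 with a limma adjusted p of 0.611, and on wild-type array 1 alone as the control it was 3.34. Within slides it was 2.48 and 3.04. Abcg1 was read by a single probe, so no second probe bears on it.

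Abcg4, a close relative of Abcg1 known mainly from brain, read −3.78, −4.59 and −4.46 in wild type and −4.08, −2.50 and −2.50 in knockout cells. Here the groups overlapped: knockout array 1 lay below wild-type array 1, while the remaining 2 exceeded each wild-type value. The log2 difference was 1.25 (SE 0.49, limma adjusted p = 0.486; 0.936 with wild-type arrays 2 and 3 averaged), with −0.30 on slide 1 and 2.03 on slide 2. For Abcg4 too it was smaller, 0.79, after normexp and quantile normalisation and also 0.79 in the deposited value table, both under 2-fold.

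Abca1, the exporter of cholesterol and phospholipid to apolipoprotein A-I, was named after its values were seen, because it is the usual companion of Abcg1. It read 1.05, −1.04 and −1.25 in wild type and −1.94, −1.55 and −0.11 in knockout cells. Wild-type array 1 was the highest and knockout array 1 the lowest, and the other 4 arrays interleaved. Its log2 difference was −0.79 with a 95% interval of −2.55 to 0.97, −3.00 on slide 1 and 0.32 on slide 2. The difference between the responses of Abcg1 and Abca1 was not tested. Abcg2, a drug and urate exporter of the G subfamily, differed by 0.039 with an interval of −0.50 to 0.58, which leaves out a 2-fold difference in either direction.

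In the B subfamily, 7 of 8 members were detected, 3 above and 4 below 0. Abcb9, which carries peptides into lysosomes, read −0.21, −1.33 and −1.37 in wild type and 1.66, 0.32 and 0.75 in knockout cells. The groups did not overlap, although wild-type array 1 came within a short distance of knockout array 2. The log2 difference was 1.88 (SE 0.47, 95% interval 0.76 to 3.00, limma adjusted p = 0.376). Slide 1 gave 1.87 and slide 2 gave 1.89, and averaging wild-type arrays 2 and 3 gave 1.69 (limma adjusted p = 0.936).

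Abcb6, a porphyrin carrier of the outer mitochondrial membrane and other membranes, read −0.89, −1.12 and −0.93 in wild type and 0.55, −0.34 and −0.79 in knockout cells. The separation was narrow, with knockout array 3 just above wild-type array 1. Its log2 difference was 0.79 (SE 0.37, 95% interval −0.086 to 1.66, limma adjusted p = 0.497). Slide 1 gave 1.44, slide 2 gave 0.46, and leaving out knockout array 1 gave 0.42. The mitochondrial relatives Abcb8 and Abcb10 overlapped between groups, at 0.059 (95% interval −0.72 to 0.84) and −0.69 (−1.70 to 0.32).

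Among the 7 detected B members, the SD over knockout arrays was 1.76, 1.08 and 1.03 for Abcb1a, Abcb1b and Abcb4 and at most 0.69 for the others. Abcb1b, a P-glycoprotein, read 1.68, 1.74 and 1.75 in wild type and 0.24, 2.38 and 1.20 in knockout cells. Its knockout arrays thus lay on both sides of a tight wild-type group. The neighbouring gene Abcb4, the phosphatidylcholine floppase of bile canaliculi, read 1.37, 1.45 and 1.52 in wild type and 0.08, 2.14 and 1.12 in knockout cells. Both probes put the 6 arrays in the same order, from knockout array 1 to knockout array 2. Abcb1b and Abcb4 were named after their values were seen. The first Abcb4 probe differed by −0.34, and a second was well above background on 1 wild-type and 2 knockout arrays only, so no difference is given for it. Abcb1b and Abcb4 are related genes, and whether the first Abcb4 probe also read Abcb1b was not tested. Abcb1a, the other P-glycoprotein, read −6.33, −5.00 and −5.11 in wild type and −8.79, −5.43 and −6.17 in knockout cells. Knockout array 1, where it was not above background, was the lowest, and the difference was −1.32 (95% interval −3.41 to 0.77).

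In the C subfamily, 6 of 9 members were detected, 5 above 0 and 1 below. Abcc4, an exporter of cyclic nucleotides and prostanoids, read −0.10, −0.62 and −0.63 in wild type and 0.74, 0.91 and 0.45 in knockout cells. No array of one group reached the other. The log2 difference was 1.15 (SE 0.26, 95% interval 0.53 to 1.77), a 2.22-fold higher mean, with a limma adjusted p of 0.335. Slide 1 gave 0.84, slide 2 gave 1.31, and averaging wild-type arrays 2 and 3 gave 1.06 (limma adjusted p = 0.936). A second Abcc4 probe gave 1.09.

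Abcc1, the glutathione-conjugate exporter, read 2.51, 2.99 and 3.02 in wild type and 2.72, 2.81 and 2.51 in knockout cells. The groups overlapped, with wild-type arrays 2 and 3 above every knockout array and wild-type array 1 near the lowest. Its log2 difference was −0.16 (95% interval −0.74 to 0.42), which leaves out a 2-fold difference. Its relatives Abcc5 and Abcc3 differed by 0.47 (−0.83 to 1.77) and 0.088 (−1.83 to 2.01). Abcc8, the sulfonylurea receptor of potassium channels, read −4.77, −7.01 and −7.52 in wild type and −6.01, −4.15 and −2.21 in knockout cells. The 2 highest values were knockout arrays 3 and 2, and knockout array 1 lay below wild-type array 1. It was well above background on 2 wild-type arrays, and its difference of 2.31 (95% interval −0.28 to 4.91) turned from −1.23 on slide 1 to 4.09 on slide 2. A second Abcc8 probe was not above background on any array. The channel subunits it pairs with, Kcnj11 and Kcnj8, did not pass the filter in either group. Abcc10, a drug pump, read −6.38, −6.51 and −7.56 in wild type and −5.69, −6.36 and −6.63 in knockout cells, with overlap, and differed by 0.59 (95% interval −0.39 to 1.57).

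Of the A subfamily, 6 of 10 members were detected, 3 above and 3 below 0. Abca2, a lipid transporter of lysosomes, read −0.85, −0.61 and −0.68 in wild type and −0.49, 0.19 and 0.10 in knockout cells. The gap was narrow, since knockout array 1 lay only a little above wild-type array 2. Its log2 difference was 0.65 (SE 0.26, limma adjusted p = 0.486; 0.936 with wild-type arrays 2 and 3 averaged), and a second probe gave 0.73. Abca3, which loads phospholipid into lamellar bodies, read −0.32, −0.46 and −0.28 in wild type and 0.51, 0.37 and −0.14 in knockout cells. Knockout array 3 again came close to wild type. Its log2 difference was 0.60 (SE 0.25, limma adjusted p = 0.488), and its other detected probes gave 0.49 and 0.28.

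Abca7, a phospholipid transporter linked to phagocytosis, read 3.11, 3.24 and 3.41 in wild type and 4.31, 3.19 and 3.33 in knockout cells. A single array, knockout 1, stood above the rest, and the difference of 0.36 was 0.0075 without it. Abca5 and Abca8b differed by −0.35 (95% interval −1.14 to 0.43) and −0.40 (−1.45 to 0.66), with knockout array 1 the lowest of the 6 arrays for each.

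Among the D subfamily, Abcd3, the peroxisomal importer of long and branched fatty acids, read 3.72, 3.51 and 3.48 in wild type and 3.37, 3.89 and 3.69 in knockout cells. Its log2 difference was 0.076 (95% interval −0.48 to 0.64), on either side of 0 depending on the scaling (−0.098 after quantile normalisation), and its interval too left out a 2-fold difference. Abcd4, which releases cobalamin from lysosomes, differed by −0.34 (−1.74 to 1.06), with 1.45 on slide 1 and −1.24 on slide 2.

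**Figure D2:**
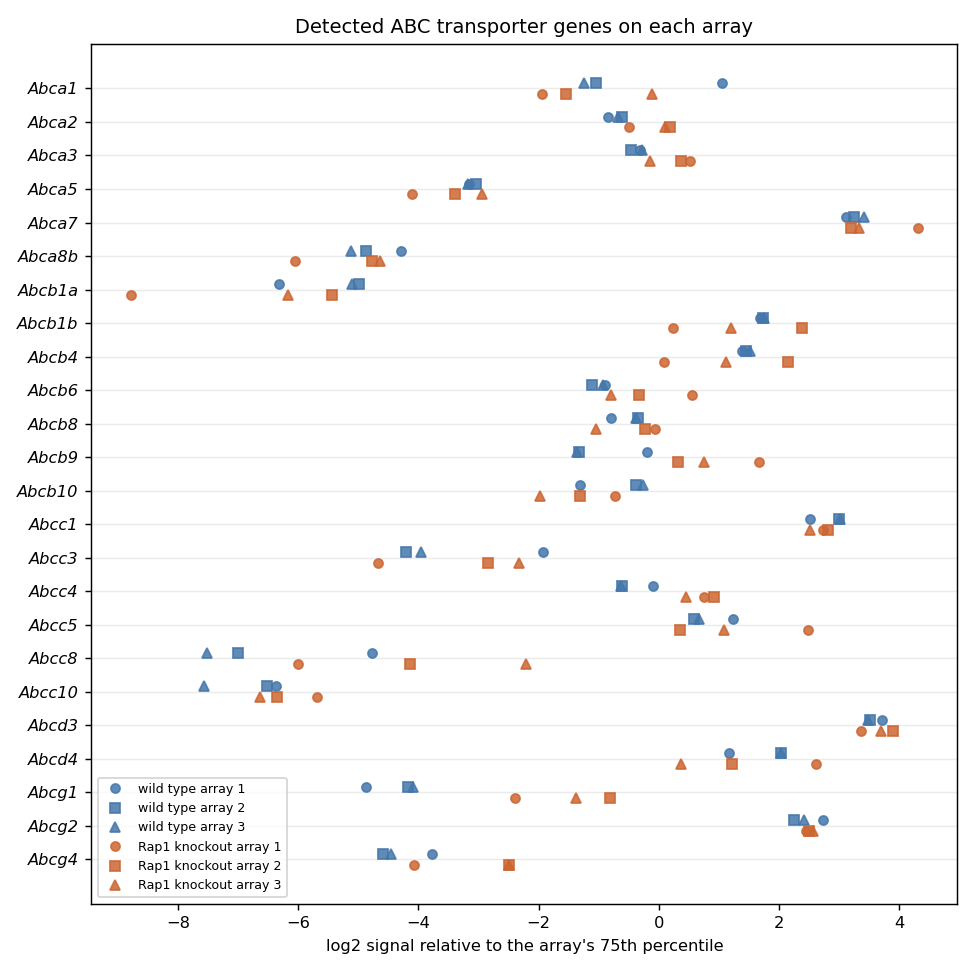
Log2 processed signal, less the 75th percentile of its array, for the 24 detected ABC genes on each of the 3 wild-type (blue) and 3 knockout (orange) arrays. Abcg1, Abcb9 and Abcc4 show orange points clear of the blue ones. Wild-type arrays 2 and 3 nearly coincide in most rows, and marker shapes give the array number. Levels of different genes come from different probes and are not compared.

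The 10 members that did not pass the filter were Abca4, Abca6, Abca8a, Abca9, Abcb11, Abcc2, Abcc6, Abcc9, Abcd2 and Abcg3. Of these, 5 had a representative probe that was not well above background on any array: Abca6, Abcc2, Abcc6, Abcc9 and Abcg3. Abcb11 and Abcc2 are the bile salt and bilirubin-conjugate pumps of the liver, Abca4 the retinoid flippase of photoreceptors and Abcc9 a sulfonylurea receptor of muscle. Abcd2, a peroxisomal importer of very long fatty acids, was above background on 2 wild-type arrays and 1 knockout array, and Abca9 on 2 and 0. No difference is given for these genes, since at least 1 array in each group gave only a bound.

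Where several probes of a gene were detected, they gave like differences. In 9 detected members with 2 or 3 detected probes, all probes of a gene lay on the same side of 0. The distance between the lowest and the highest was 0.0089 for Abcc1, 0.060 for Abcc4, 0.078 for Abca2 and at most 0.32, for Abca3. This covers 3 of the 6 members without overlap, Abca2, Abca3 and Abcc4, while Abcb6, Abcb9 and Abcg1 have 1 probe each. For the dimmest Abca3 probe the groups did overlap.

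**Figure D3:**
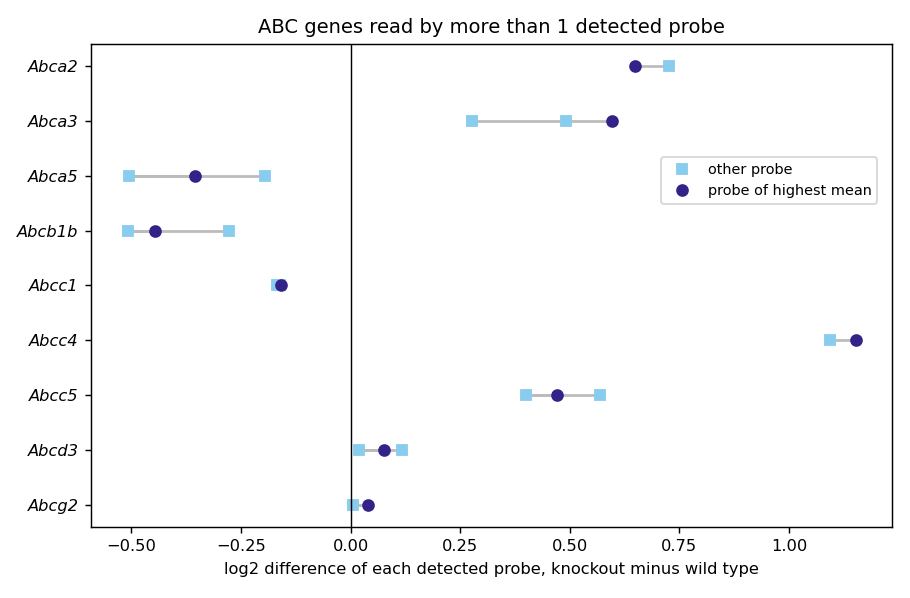
Log2 difference, knockout minus wild type, of each detected probe for the 9 ABC genes with more than 1 detected probe. Dark circles mark the probe of highest mean. Probes of a gene lie within 0.32 of each other, and the Abcc4 probes stand at 1.09 and 1.15.

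Of the 24, 10 had a difference of the same sign on both slides and 14 had opposite signs. The share of all features with opposite signs was not computed, so these counts are not read as a trait of the members. For the 6 without overlap the same sign follows from how they were picked, so it adds no support. For Abcc3, an exporter of glucuronides, slide 1 gave −2.73 and slide 2 gave 1.499, and Abcc8 and Abca1 also crossed 0. With 1 array per group on slide 1, the effect of that slide and of its arrays cannot be told apart. In a fit of slide 2 alone, 3 members passed a limma adjusted p under 0.05, all higher in knockout cells, against 1.29% of all features: Abcb9 (1.89, adjusted p = 0.0496), Abcg1 (3.04, adjusted p = 0.0340) and Abcg4 (2.03, adjusted p = 0.0349). That fit had no wild type but the near-alike arrays 2 and 3, which leaves their small distance as the whole spread of that group.

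**Figure D4:**
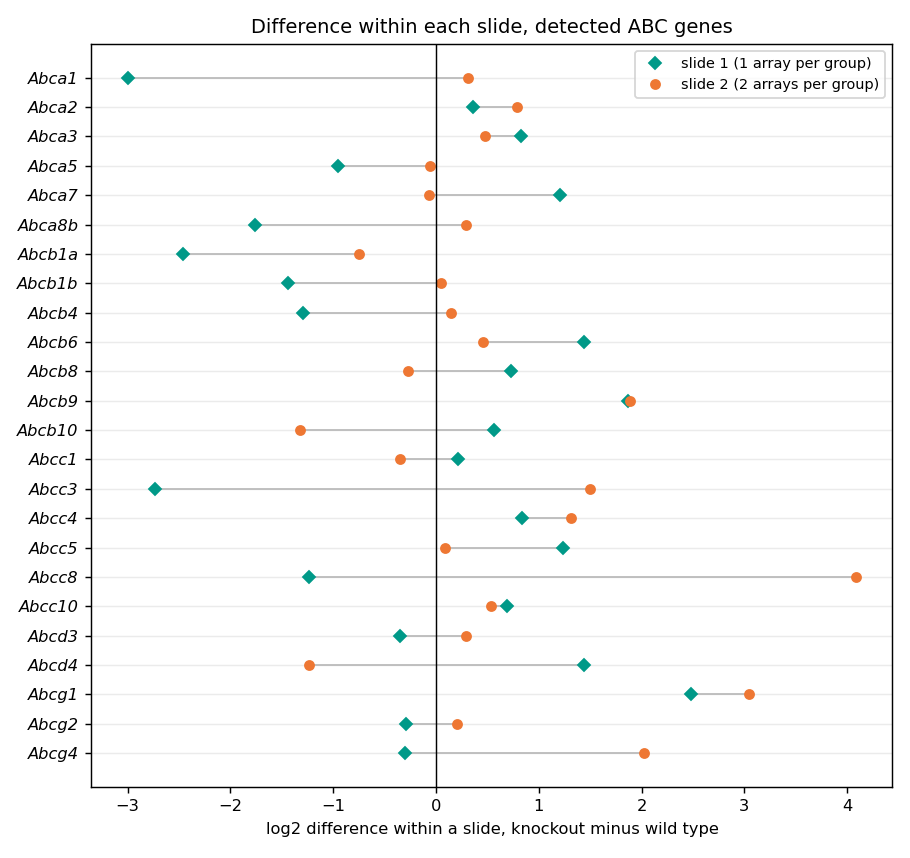
Log2 difference within each slide for the 24 detected ABC genes, knockout array 1 minus wild-type array 1 on slide 1 (diamonds) and the mean of 2 knockout minus the mean of 2 wild-type arrays on slide 2 (circles). The slides gave Abcb9 1.87 and 1.89, and Abca1, Abcc3 and Abcc8 cross 0, which genes without overlap cannot do.

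Related genes were read in the same fit, and 0 of them passed a limma adjusted p under 0.05. At an unadjusted limma p under 0.05 were 2018 of 19647 features. Of the detected genes of each list, these were 4 of 6 for peptide transport, 3 of 9 for other ABC genes and 3 of 25 for the liver X receptor list. The counts were 2 of 11 for haem and mitochondria, 1 of 18 for drug and oxidant response, 0 of 15 for sterol synthesis and 0 of 13 for peroxisomes. Of the other ABC genes, 9 were detected, 6 above and 3 below 0 with a median of 0.37. Abcf1, a translation factor without membrane domains, differed by 0.65 (SE 0.26), and Tap2, a subunit of the peptide transporter of antigen presentation, by 0.75 (SE 0.22). Both lay higher on every knockout array. Abcb9 is a relative of the Tap genes. In the list of peptide transport partners, which shares Tap1 and Tap2 with the former, 5 of 6 lay above 0 with a median of 0.73 and 4 lay higher on every knockout array (11.3% of all features did), namely the immunoproteasome subunits Psmb8 (0.70, SE 0.23) and Psmb9 (0.88, SE 0.23), Tapbp (1.102, SE 0.36) and Tap2.

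Of 25 detected genes of the liver X receptor and cholesterol efflux list, 14 lay above 0 and 11 below, with a median of 0.11. The receptors themselves were read at 0.00028 (SE 0.24) for Nr1h2 and 1.32 (SE 0.69) for Nr1h3, both with overlapping groups. By smallest p the list was led by Apod, a lipocalin, at −2.62 (SE 0.34, limma adjusted p = 0.137; not above background on any knockout array, so a fitted value), Lpl, a lipoprotein lipase, at −4.86 (SE 1.57) and Srebf1, a receptor target and lipogenic factor, at 0.62 (SE 0.25). Apoe, another receptor target, ran from −6.88 on slide 1 to 2.34 on slide 2. Genes of this list therefore lay on both sides of 0. In sterol synthesis, 14 of 15 detected genes lay below 0, but by little, with a median of −0.18; Sc5d at −0.49 (SE 0.22), Insig1 at −0.37 (SE 0.23) and Hmgcs1 at −0.44 (SE 0.29) had the smallest p.

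The drug and oxidant response list holds regulators and enzymes, only some of which make conjugates that C subfamily members export. Of its 18 detected genes, 14 lay above 0 with a median of 0.24. Nqo1, a quinone reductase, differed by 0.97 (SE 0.40), Gclc, a subunit of the enzyme for glutathione synthesis, by 0.48 (SE 0.22) and Keap1, the repressor of Nfe2l2, by 0.54 (SE 0.29). Peroxisome genes gave 8 of 13 above 0 (median 0.16), with Acsl4 at −1.21 (SE 0.62) and Pex5 at 0.31 (SE 0.21). Haem synthesis and mitochondrial carriers gave 8 of 11 above 0 (median 0.31), where Alas1, the first enzyme of haem synthesis, differed by 0.65 (SE 0.21), Cpox by −0.60 (SE 0.22) and Tmem14c by 0.60 (SE 0.28).

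**Figure D5:**
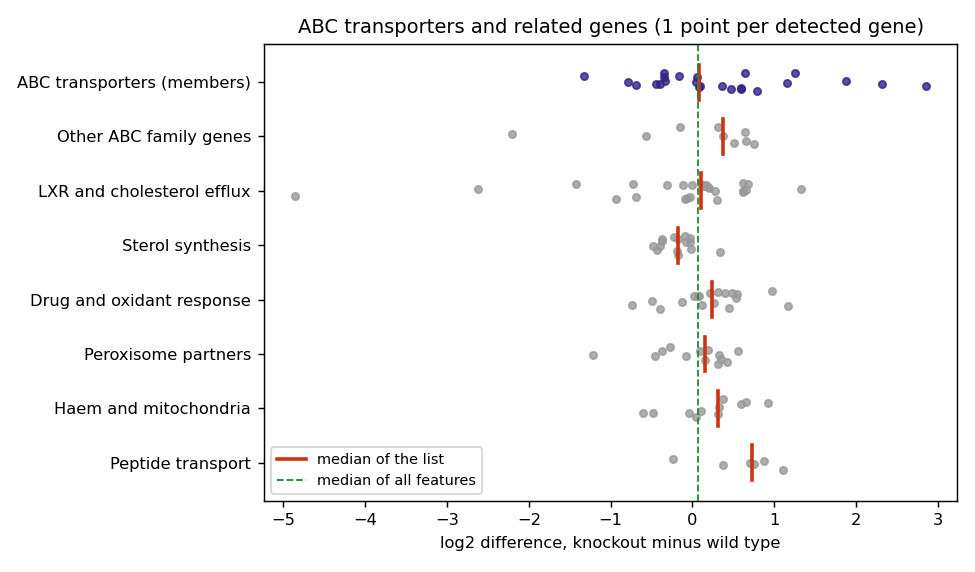
Log2 difference, knockout minus wild type, of each detected gene in the ABC members and 7 related lists, with the median of each list (red bar) and of all features (dashed line, 0.068). The members centre near all features, with Abcg1 farthest to the right, while the peptide transport list (6 genes, median 0.73) lies highest and sterol synthesis (15 genes, median −0.18) lowest.

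Markers of fibroblasts were checked beside these values. All 12 were above background in wild type, among them Col1a1, Col1a2, Vim and Fn1. In knockout cells 9 of 12 lay below 0 with a median of −0.91, and their summed signal ran from 9.26 to 9.39 in wild type and from 8.36 to 9.16 in knockout cells, without overlap, although 0 of the 12 passed the adjusted threshold. Thy1 differed by −2.64 (SE 1.12) and Pdgfra by −2.38 (SE 0.81), and both were lowest on knockout array 1. There Thy1 read −2.22, against 1.92 and 1.99 on knockout arrays 2 and 3, and Pdgfra −1.48, against 1.99 and 0.12. Dcn and Lum lay far below 0 on slide 1 but above 0 on slide 2 (0.24 and 2.58). Prrx1, of smallest p among the 12, differed by −0.90 (SE 0.24). In all, 4 of the 12 were lower on every knockout array, against 5.88% of all features. Of 8 macrophage markers on the array, 3 passed the filter, and Ptprc, Itgam and Adgre1 were not above background on any array. The summed macrophage signal, from 0.34 to 0.77 in wild type and from −0.29 to 0.50 in knockout cells, overlapped. The endothelial genes Pecam1 and Cdh5, the hepatocyte gene Alb and the adipocyte gene Adipoq were not above background on any array either. Other markers of these lists did pass the filter: 2 of 7 endothelial, 1 of 5 hepatocyte and 2 of 6 adipocyte markers on the array. Both endothelial ones lay below 0, 1 of them lower on every knockout array. Summed signals of endothelial markers were −1.20 to 0.54 and −2.18 to −1.69, in wild type and knockout cells, and those of epithelial markers 1.06 to 1.64 and 2.02 to 3.70, where Krt18 differed by 1.53 (SE 0.48) and Krt8 by −1.74 (SE 0.72), with 2 of 5 detected markers above 0 and 3 below. Those of adipocyte markers were 1.93 to 3.24 and −0.51 to 1.76, where Fabp4 differed by −2.55 (SE 0.70) and Plin1, not above background on any wild-type array, lay higher on every knockout array. The summed signals of these 3 lists did not overlap between groups. Each sum adds the unlogged signals of all markers of a list on the array, detected or not, so the brightest markers weigh most. How often sums of other gene lists separate the groups was not tested. Hepatocyte markers (−5.88 to −5.20 and −6.10 to −4.85), muscle markers (−5.50 to −0.89 and −5.84 to −5.12) and neural markers (0.47 to 2.90 and 0.02 to 0.68) overlapped. The part of these markers in the values of Abcg1, Abcb9 and Abcc4 was not tested, and in bulk RNA fewer cells of a type and less RNA per cell cannot be told apart.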

How the data were processed

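Total RNA of 3 wild-type and 3 knockout samples was read on Agilent mouse arrays. The deposited scanner files hold intensity values of Agilent Feature Extraction (version 10.5.1.1, per the file headers), namely a background-corrected, spatially detrended processed signal, the median spot signal, the local background and flags. The deposited value table holds log2 values, a scale read from its match to the scanner signals, and the submitters' processing notes list limma. Its column medians were 6.86, 6.86, 6.86, 6.86, 6.86 and 6.87. Its columns matched normexp-corrected, quantile-normalised scanner signals (r = 0.99999), which settles scale and direction; the exact steps were not given in the sources used here. Its 3 knockout columns carried the values of other knockout scanner files than their labels name, which leaves groups unchanged.

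Control spots (1639 of 45018) and outlier spots (74 to 120 per array) were left out, no spot was saturated, and spots of a probe were averaged to 41174 probes. Names came from RefSeq accessions (assembly GRCm38.p6), which named 23374 probes. The files carry no gene name column. From the log2 processed signal, each array's own 75th percentile was subtracted. A gene was its probe of highest mean, and it entered where every array of at least 1 group measured it well above background. Groups were compared across all genes by limma 3.58.1 in R 4.3.3 (lmFit, eBayes, 2-sided, Benjamini-Hochberg 0.05), a script tested on simulated data. For normexp (offset 50), the median spot signal stood in for the mean.

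The members and lists were chosen with earlier results of these data known. By rule, array values are given for members without overlap or with an unadjusted p under 0.05 for those detected through 1 group and for the 3 of highest signal, and up to 3 genes of smallest p for each related list, some of which are not reported here. Alternatives were other scalings, the value table, filters, mean of probes, variance model, blocks, slide 2 alone, averaged wild-type arrays and leaving out each array.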

Additional observations from a re-analysis of the deposited data

How the results depend on the processing

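Over 18 alternatives, the log2 difference of Abcg1 lay between 2.04 and 3.29, that of Abcb9 between 1.51 and 2.26 and that of Abcc4 between 1.05 and 1.33. Their sign is no sign of stability, since leaving out, averaging or blocking arrays cannot turn it for groups that do not overlap. The limma adjusted p of Abcg1 ran from 0.0340 to 0.623. Members called were 3 on slide 2 alone and 0 in the other 17. Features called were 0 above background on all arrays, 4 with the mean of all probes, 0 with the slide as a block, 504 on slide 2 alone and 0 with wild-type arrays 2 and 3 averaged, and 0 to 189 without single arrays (189 without wild-type array 1). In limma, features at an unadjusted p under 0.05 numbered 1780, 3482 and 690 where 0 were called above background on all arrays, with the slide block and with averaged wild type, and 717, 746 and 1703 without wild-type arrays 2 or 3 or knockout array 1. After normexp and quantile normalisation, 3 members were at least 2-fold higher and 0 lower, against 5 and 1 in the main fit. Over all 19647 features, those at least 2-fold higher fell likewise from 763 to 301, and those lower from 1230 to 557. Members without overlap were 16 on slide 2 alone (11862 of 20344 features there) and 6 to 12 without single arrays. There were 12 of 24 without wild-type array 1, beside 9178 of 19939 features, and 10 of 24 without knockout array 3, beside 8332 of 19714. Fewer arrays overlap less by construction: the main fit had 3382 of 19647 features without overlap. The members' median was −0.052 with no filter on dim probes, which adds the 10 undetected members, 0.29 on slide 2 alone, 0.19 with median scaling, and 0.022 to 0.27 without single arrays. The median of all features was −0.081 with no filter, 0.046 on slide 2 alone and 0.17 with median scaling. Without single arrays it ran from 0.045 (without wild-type array 1) to 0.13 (without knockout array 3). Abcd3 turned to −0.077 after normexp and quantile normalisation, −0.098 after quantile normalisation, −0.076 in the value table and −0.044 to 0.22 without single arrays (below 0 without knockout array 2), and Abca7 to −0.065 on slide 2 alone; the cause was not tested. Signal over background limits Abcc8, Abcc10, Abcb1a and the undetected members.

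Deviations of arrays of the same replicate number, by the scanner numbering, correlated at 0.04, 0.05 and −0.06. The knockout columns of the value table follow another numbering, and wild-type arrays 2 and 3 were near-alike. These correlations therefore cannot settle whether replicates were paired. With the replicate block, limma called 0 features and 0 members, with 2351 features and 5 members at an unadjusted p under 0.05.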
